A study of Mus musculus with 90 samples.

Results

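Of the 19723 autosomal regions bound by Mll2 with both antisera in mouse embryonic stem cells, 1217 carried a peak of trimethylated histone H3 lysine 4 (H3K4me3) in a single one of 2 H3K4me3 libraries. These single-library regions made up 6.17% of the Mll2 regions (95% interval 5.84 to 6.52%). They were chosen by overlap alone. Overlapping Mll2 peaks of serum 9172 and serum 9175 were merged, and regions with a peak of both sera were kept. A region was a member when it overlapped a peak of H3K4me3 replicate 1 or of replicate 3, not of both, and no merged H3K4me3 region that held peaks of both. The H3K4me3 peak lay in replicate 1 at 1128 members and in replicate 3 at 89. Of the other Mll2 regions, 15532 overlapped an H3K4me3 region of both libraries and 2972 overlapped no H3K4me3 peak. The 2 remaining regions overlapped separate peaks of the 2 libraries and belong to no class.

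The series has 90 samples, and the peak lists of 5 chromatin immunoprecipitation (ChIP-seq) libraries were analysed, 1 per antibody except for H3K4me3. All 5 were of the mouse embryonic stem cell line V6.5, labelled wild type. The H3K4me3 libraries (replicates 1 and 3, antibody 28) were of cells infected with a lentivirus carrying a hairpin against GFP, which serves as a control hairpin and targets no mouse gene. The libraries of Mll2 (antisera 9172 and 9175) and of Menin (a commercial antibody) carry no hairpin in their labels. The input named in the headers of the Mll2 lists leaves unsettled whether those cells carried a control hairpin, so how far the preparations of cells differed is not known. Whether replicates 1 and 3 were separate cultures is not given. The lists name no genes, so gene markers of the cell type and the genes near each region were not analysed here.

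Mll2 is a histone methyltransferase of the COMPASS family that places methyl groups on lysine 4 of histone H3. It carries a CXXC domain, which recognises unmethylated CpG dinucleotides, and it works in a complex with shared core subunits. Menin is a subunit of the Mll1 and Mll2 complexes and not of the related Set1 complexes. H3K4me3 marks active promoters, and in embryonic stem cells also the poised promoters of developmental genes, where it occurs beside repressive methylation of lysine 27. Such promoters are known as bivalent, and Mll2 is the enzyme known for their H3K4me3.

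After removal of duplicate tags the 5 libraries held 11550409 (Menin) to 21936546 tags (H3K4me3 replicate 1), and replicate 3 held 56.0% as many as replicate 1. A peak absent from a list is therefore a site not called at that depth. Fold enrichment is the authors' value of each peak, ChIP tags over a background estimated by the peak caller. It takes few distinct values among weak peaks, so some medians have intervals of no width. With 1 library for each serum and for Menin, no test across samples could be made. Intervals are 95% intervals for counting error over regions, which are not replicates, and all comparisons between classes are descriptions.

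The H3K4me3 peaks that defined the members were weak and narrow, which describes the choice and is not a result. At the 1128 members of replicate 1 the H3K4me3 fold enrichment ran from 5.85 to 9.60 between quartiles, with a median of 7.41. At the 89 members of replicate 3 the median was 7.73 (quartiles 6.95 and 9.15). At Mll2 regions with H3K4me3 in both libraries the medians were 47.1 in replicate 1 and 44.3 in replicate 3. The median H3K4me3 peak held 52 tags at members of replicate 1 and 22 tags at those of replicate 3. Scaled to library size these were 2.37 and 1.79 tags per 1000000 kept tags, and 10% of the replicate 3 peaks had 1.87 or fewer. The median member peak of replicate 1 lay above the weakest 10% of the peaks listed in replicate 3 on this scale, which takes no account of peak width or input. Whether such a site would be called at the depth of replicate 3 was not tested.

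Members drew on the weak end of both H3K4me3 lists. In replicate 1, 61.4% of the peaks at members lay in the lowest 2 deciles of that library's fold enrichment, and in replicate 3 this was 83.1%. In the lowest decile of replicate 1, 32.5% of the peaks at Mll2 regions (28.9 to 36.3%, 634 peaks) were shared with replicate 3, against 21.1% of all its peaks (19.5 to 22.8%, 2498 peaks). In decile 4 these shares were 85.8% and 69.3%. The highest H3K4me3 fold at a member was 27.5 in replicate 1 and 26.66 in replicate 3. Replicate 3 listed 19316 autosomal peaks and replicate 1 listed 24978. When the replicate 1 list was cut to its 19316 strongest peaks, with the replicate 3 list whole, 362 of the 1128 members of replicate 1 kept their class and 766 lost their H3K4me3 peak. Since no replicate 3 peak was removed, the 89 members of replicate 3 could not be lost. Regions of both libraries could turn into regions of replicate 3 alone, as 545 that overlapped a peak of each library did. The class of both libraries also held 125 regions that overlapped a peak of a single one. Of these, 1 turned into a region of replicate 3 alone and 19 were left without H3K4me3.

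**Figure D1:**
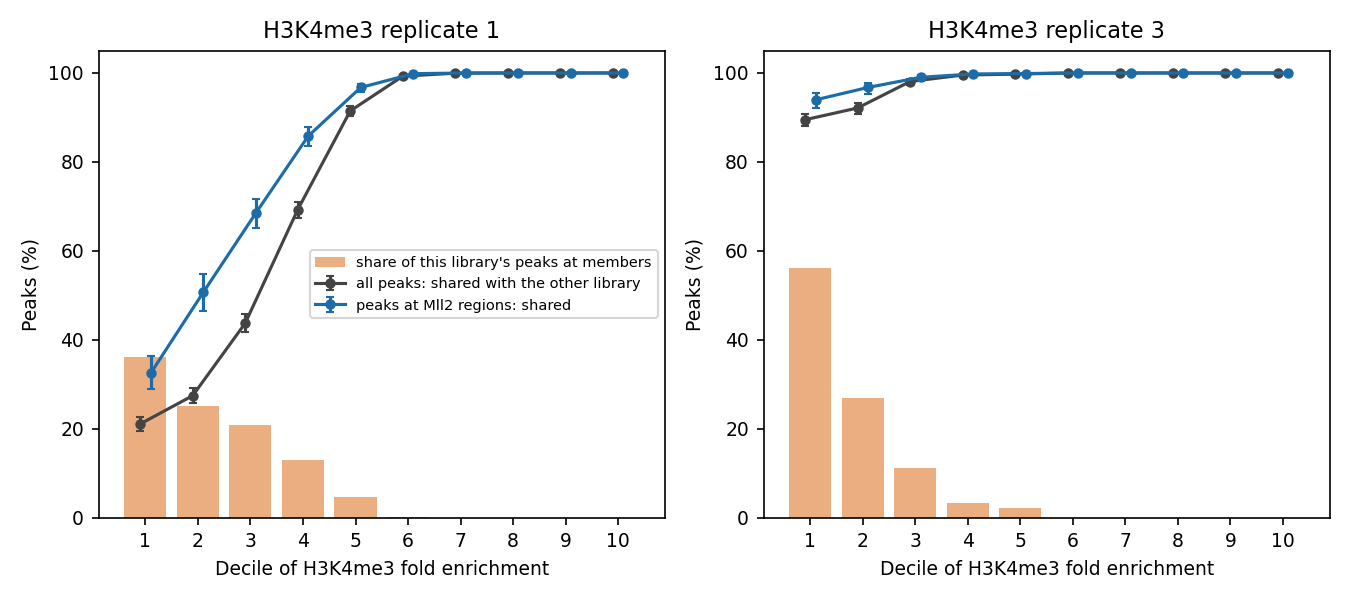
Share of H3K4me3 peaks (y axis, percent) against the decile of fold enrichment within each library (x axis); black points are all autosomal peaks that lay in a region of both libraries, blue points those among peaks at Mll2 regions, with exact 95% intervals, and orange bars the distribution over deciles of the peaks at members. Members draw on the low deciles of both libraries, and in replicate 1 the shared fraction of peaks at Mll2 regions climbs from 32.5% in the first decile to 96.7% in the fifth.

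Mll2 occupancy at the members was low and close to that of Mll2 regions without H3K4me3. In serum 9172 the median fold enrichment was 8.95 at members (quartiles 7.46 and 10.4), 8.26 at regions without H3K4me3 (7.15 and 10.4) and 16.1 at regions with H3K4me3 in both libraries (10.9 and 23.1). In serum 9175 the medians were 9.78 (8.15 and 12.2), 9.10 (7.80 and 11.4) and 18.2 (12.7 and 26.1). The quartile ranges of members and of regions without H3K4me3 overlapped over most of their length in both sera. The 95% interval of the median was 8.33 to 8.95 at members and 8.21 to 8.33 at regions without H3K4me3 in serum 9172. In serum 9175 it was 9.78 to 9.78 and 8.97 to 9.10. Counted as tags per kb of peak, the medians were 46.1, 45.2 and 74.2 in serum 9172 and 35.8, 34.1 and 57.9 in serum 9175, for members, regions without H3K4me3 and regions with it in both libraries.

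Strong Mll2 peaks were rare among the members. A fold of at least 20 was reached by 2.47% of members in serum 9172 (30 regions) and by 2.71% in serum 9175 (33 regions), against 27.9% and 34.5% of all autosomal Mll2 regions. The shares at regions without H3K4me3 were 2.22% and 1.38%. Read the other way, members made up 14.2% of the Mll2 regions in the lowest quartile of serum 9175 fold, 7.29% in the second, 1.67% in the third and 0.342% in the highest. The members of replicate 3 had median folds of 8.85 and 10.4 in the 2 sera, and those of replicate 1 had 8.95 and 9.78. A serum 9175 fold of at least 20 was reached by 6 of the 89 members of replicate 3 (6.74%, 2.51 to 14.1%) and by 27 of the 1128 of replicate 1 (2.39%, 1.58 to 3.46%).

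Members were wider than Mll2 regions without the mark and narrower than those with it in both libraries. The median width of the merged Mll2 region was 905 bp at members (884 to 926 bp), 785 bp without H3K4me3 (776 to 791 bp) and 1356 bp with H3K4me3 in both libraries (1347 to 1365 bp). The order was the same for the strongest peak of each serum, with 651, 602 and 1108 bp in serum 9172 and 818, 724 and 1286 bp in serum 9175. A wider region overlaps another list more easily, and its part in the choice of members was not tested. More than 1 peak of a serum was present at 4.60% of members, against 2.22% of regions without H3K4me3 and 5.60% of those with it in both libraries.

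**Figure D2:**
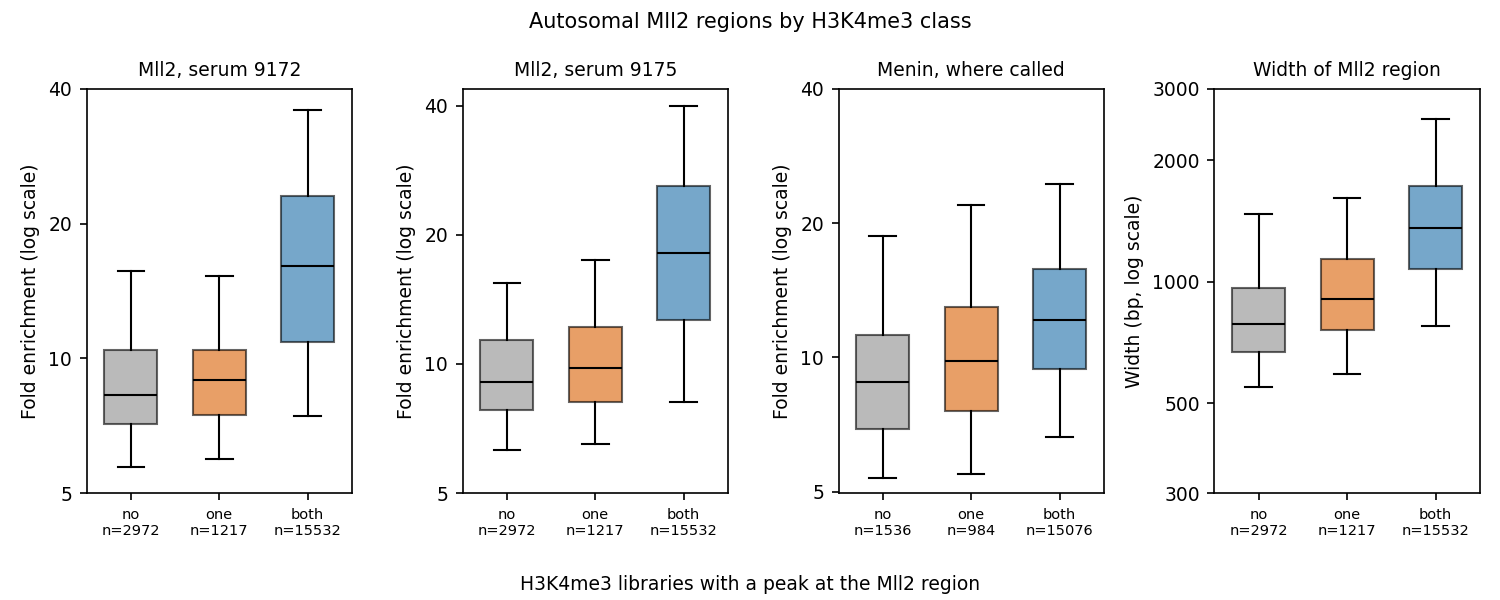
Fold enrichment of Mll2 in serum 9172 and serum 9175, fold enrichment of Menin where a Menin peak was called, and width of the Mll2 region (log axes), for autosomal Mll2 regions with H3K4me3 in no library, in one or in both. Boxes span the quartiles with the median as a line, and whiskers reach the 5th and 95th percentiles; boxes of the no-library and one-library classes overlap for most of their length in Mll2 fold, with medians of 8.26 and 8.95 in serum 9172.

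Menin was listed at most members, and its share lay between those of the other classes. A Menin peak overlapped 984 of the 1217 members (80.9%, 78.5 to 83.0%), against 89.2% of all autosomal Mll2 regions. The share was 51.7% at Mll2 regions without H3K4me3 (49.9 to 53.5%) and 97.1% at those with H3K4me3 in both libraries (96.8 to 97.3%). The members of replicate 1 and replicate 3 gave 80.7% and 83.1%, the latter with an interval of 73.7 to 90.2%. Where Menin was called, its median fold was 9.84 at members (quartiles 7.59 and 13.0), 8.79 without H3K4me3 (6.92 and 11.3) and 12.1 with it in both libraries (9.41 and 15.8). The Menin peaks at members had a median width of 1073.5 bp, against 870 bp and 1556 bp. With Menin counted only where its summit fell inside the Mll2 region, a setting chosen after the data were seen, the shares were 71.0%, 44.7% and 93.3%.

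Within each quartile of Mll2 fold the Menin share of members lay between those of the other classes. In the lowest quartile of serum 9175 fold (3.35 to 10.6), Menin was called at 78.5% of 785 members, 50.3% of 2136 regions without H3K4me3 and 88.8% of 2597 regions with it in both libraries. In the second quartile (10.62 to 15.49) the shares were 84.7%, 55.5% and 96.4%. In the third quartile (15.5 to 23.64) they were 88.0% of 83 members, 51.6% and 99.4%. The highest quartile held 16 members, and their 81.3% (54.4 to 96.0%) overlapped the interval of the 13 regions without H3K4me3 (38.6 to 90.9%). At the lowest serum 9175 folds, below 8, members (194 of 237, 81.9%, 76.3 to 86.5%) and regions with H3K4me3 in both libraries (558 of 678, 82.3%, 79.2 to 85.1%) had nearly equal shares. By width, the narrowest quartile (up to 935 bp) gave 76.8%, 48.7% and 87.6%, and the widest quartile (from 1623 bp) gave 84.5%, 54.4% and 99.3%.

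Menin at members varied with distance from the nearest H3K4me3 region of both libraries, whatever the strength of that region. The median distance from a member to such a region was 12453 bp (quartiles 3466 and 35655 bp), and from Mll2 regions without H3K4me3 it was 14678.5 bp. Such a region lay within 5 kb of 31.7% of members (29.1 to 34.4%) and of 27.1% of regions without H3K4me3 (25.5 to 28.7%). Members up to 2500 bp from it had Menin in 89.9% of cases (213 of 237), and members more than 40000 bp away in 67.5% (191 of 283, 61.7 to 72.9%). At Mll2 regions without H3K4me3 the corresponding shares were 63.5% and 34.4% (31.1 to 37.9%). Menin was counted here at any overlap, also where its summit lay outside the Mll2 region. Shares by distance with the summit inside were not computed. The median fold of members in serum 9175 was 9.78 in each of the 4 distance groups, and in serum 9172 it was 8.95 in the nearest group and 8.53 in the farthest.

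**Figure D3:**
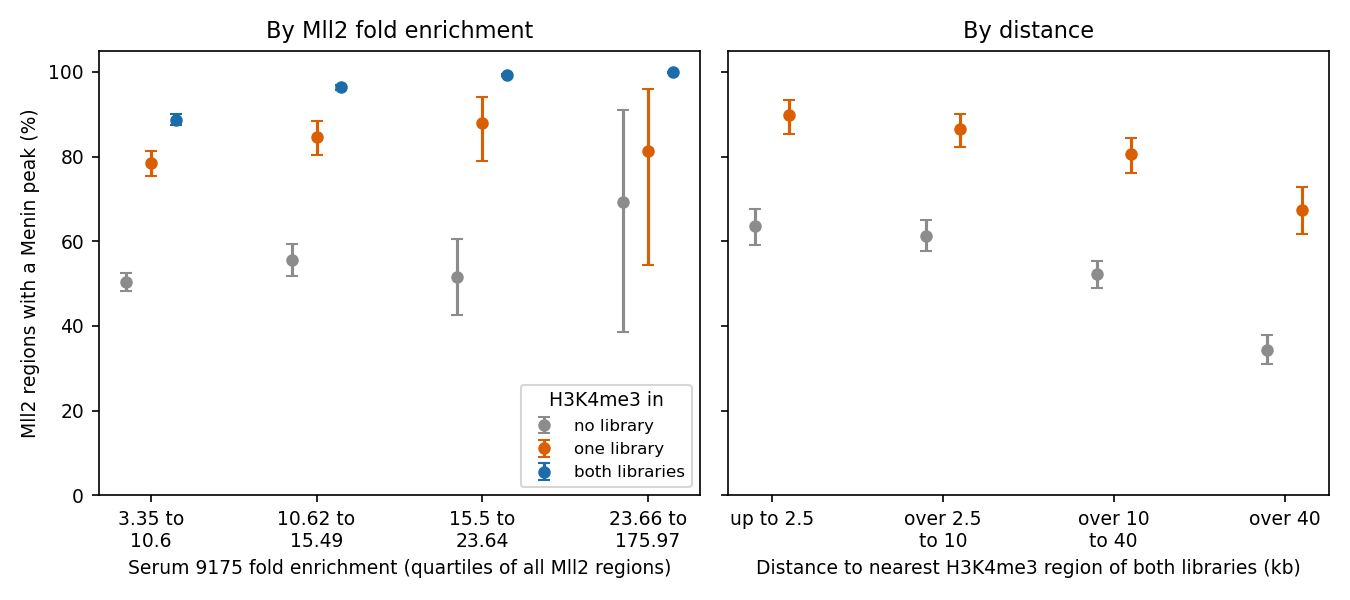
Share of Mll2 regions with a Menin peak (y axis, percent, exact 95% intervals) within quartiles of serum 9175 fold enrichment (left) and within 4 groups of distance to the nearest H3K4me3 region of both libraries (right), for regions with H3K4me3 in no library (grey), one (orange) or both (blue, left panel). The orange points lie between grey and blue in each quartile, with overlapping intervals in the highest one, and above grey at each distance.

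Members were also set beside regions with the mark in both libraries within the same range of H3K4me3 fold. Among replicate 1 folds between 5.85 and 9.60, the middle of the members' own range, 572 members had median Mll2 folds of 8.33 (8.21 to 8.95) and 9.78 (9.75 to 9.78) in sera 9172 and 9175. The 619 Mll2 regions with H3K4me3 in both libraries in that range had 8.95 (8.88 to 8.95) and 9.86 (9.78 to 10.6). Menin was called at 81.1% of these members (77.7 to 84.2%) and at 91.0% of these regions of both libraries (88.4 to 93.1%). Within this range the median H3K4me3 fold was 7.41 at the members and 8.05 at the others, so fold was not fully matched. The H3K4me3 peak held a median of 50 tags over 903.5 bp at the members and 76 tags over 1157 bp at the others. In the replicate 3 range of 6.95 to 9.15, 45 members had Menin in 84.4% (70.5 to 93.5%) and 773 regions of both libraries in 92.6% (90.6 to 94.4%), with overlapping intervals. Their median Mll2 folds were 8.21 (7.46 to 8.95) against 9.37 (8.95 to 9.70) in serum 9172 and 9.78 (8.40 to 11.4) against 10.6 (10.6 to 11.4) in serum 9175. Their H3K4me3 peaks had median folds of 7.73 against 8.02, with 21 against 37 tags over 674 against 910 bp.

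Seen from the mark, H3K4me3 peaks at members were wider than other unshared peaks and held more tags, at a similar or lower fold. A wider peak overlaps an Mll2 region or a Menin peak more easily, and the part of width in these differences was not tested. In replicate 1, 6187 autosomal peaks lay in no region of both libraries, and 1131 of them overlapped a member. Their median fold was 7.41, against 7.43 for the other 5056, and their median widths were 936 and 714 bp. They held a median of 52 tags against 34, with median scores of 117 and 88.7. Menin overlapped 80.6% of the peaks at members (78.2 to 82.9%) and 36.9% of the others (35.6 to 38.3%). For the 3871 unshared peaks without an Mll2 peak of either serum the share was 28.2% (26.8 to 29.7%). In replicate 3 the 89 peaks at members had a median fold of 7.73, a width of 711 bp, 22 tags and Menin at 82.0%. The other 317 unshared peaks of replicate 3 had a fold of 8.11, 574 bp, 17 tags and Menin at 45.1%. Over Mll2 regions, Menin was listed at 51.7% of those without the mark (median width 785 bp) and at 80.9% of the members (905 bp). The 28.2% is counted over H3K4me3 peaks of replicate 1, with a median width of 681 bp. These shares are therefore over unlike intervals.

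Members were chosen by the overlap of the peaks of both sera and of H3K4me3, so some closeness of these summits comes from the choice. Between the summits of the 2 sera the median distance was 85 bp (quartiles 38 and 183 bp), against 64 bp without H3K4me3 and 74 bp with it in both libraries. The serum 9175 summit lay a median of 169 bp from the summit of the H3K4me3 peak (80 and 276 bp) and, in 984 members, 139 bp from the summit of the strongest Menin peak (53.75 and 367.25 bp, at most 8251 bp). The Menin summit lay inside the Mll2 region at 864 of these 984 members. The serum 9175 summit fell inside the H3K4me3 peak in 92.4% of members, in 93.2% of those of replicate 1 and in 83.1% of those of replicate 3. The Mll2 region was wider than the H3K4me3 peak at 45.4% of the members of replicate 1 and at 83.1% of those of replicate 3. A few members shared peaks, with 18 members on 9 H3K4me3 peaks of replicate 1 and 27 members on 13 Menin peaks.

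Members lay on all 19 autosomes. Their share of the Mll2 regions ran from 3.52% on chromosome 16 (20 of 568, 2.16 to 5.39%) to 8.13% on chromosome 13 (69 of 849, 6.38 to 10.2%). Chromosome 11 had the largest number, 135 of 1718 Mll2 regions. Another Mll2 region lay within 5 kb of 36.9% of members, against 32.8% of regions without H3K4me3 and 24.9% of those with it in both libraries.

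Members without Menin differed little from the rest in Mll2. The 233 members without Menin had median folds of 8.33 (8.21 to 8.95) in serum 9172 and 9.62 (8.97 to 9.78) in serum 9175, and the 984 with Menin had 8.95 (8.33 to 8.95) and 9.78 (9.78 to 10.0). Their median H3K4me3 folds were 7.80 and 7.43. They were narrower, with a median of 795 bp against 926 bp, and farther from H3K4me3 regions of both libraries, with 25809 bp (20463 to 35445 bp) against 10475.5 bp (9077 to 11843 bp). Across members the sera related loosely, with a Spearman's rho of 0.44 over 1217 regions, against 0.82 over the 15532 regions with H3K4me3 in both libraries and 0.36 over the 2972 without it. Both sera had 1 common input, and the classes differ in their range of folds.

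**Figure D4:**
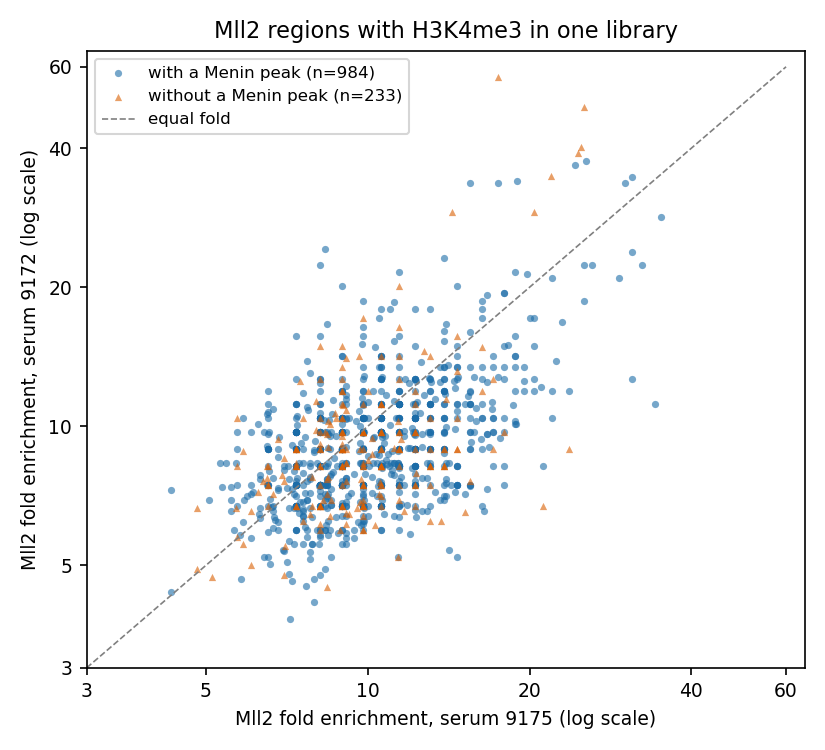
Mll2 fold enrichment in serum 9172 (y axis) against serum 9175 (x axis), both on log scales, for the 1217 members; blue circles have a Menin peak, orange triangles have none, and the dashed line marks equal fold. The 4 members highest in serum 9172, from 39.04 to 56.91, all lack Menin.

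Of the 5 members strongest in serum 9172, 1 had Menin. Positions are those of mouse build mm9. The highest, chromosome 4 from 10786735 to 10787870, reached 56.91 in serum 9172, 17.44 in serum 9175 and 14.31 in H3K4me3 replicate 1. The next was chromosome 9 from 65048472 to 65050202, with 49.23 and 25.27 in the sera and 7.05 in replicate 1. A region on chromosome 11 from 87235906 to 87237243 had 40.3 and 24.95, and 4.71 in replicate 1. None of these 3 had a Menin peak. Another, on chromosome 12 from 60140509 to 60142410, had 39.04 and 24.62 and a replicate 3 peak at 11.38, and again no Menin. The last of the 5, on chromosome 5 from 115938891 to 115941068, had 37.48 and 25.46, an H3K4me3 fold of 7.22 in replicate 1 and Menin at 7.95. Of the 16 members with a serum 9172 fold of at least 24, 9 had Menin (56.3%, 29.9 to 80.2%), while at the same fold 99.7% of 3316 regions with H3K4me3 in both libraries had it. At folds from 16 to 24, 34 of 37 members had Menin (91.9%, 78.1 to 98.3%). Among the 50 and the 100 members highest in serum 9172 outside chromosome 18, 41 and 80 had it, close to the share of all members. Among the 40 regions without H3K4me3 at a serum 9172 fold of at least 24, 19 had Menin (47.5%, 31.5 to 63.9%). This interval overlapped that of the 16 members at the same fold. At folds from 16 to 24, 52 of 96 regions without H3K4me3 had Menin (54.2%, 43.7 to 64.4%), below the interval of the 37 members. The ranks rest on a single library, and whether the members strongest in serum 9172 differ from the rest in Menin was not tested.

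The 5 members highest in serum 9175 all had Menin. At the first, chromosome 5 from 136282120 to 136283081, serum 9172 gave 28.35, serum 9175 35.05, H3K4me3 replicate 1 7.51 and Menin 11.23. On chromosome 15, from 84961927 to 84963086, a region had 11.19 and 34.23 in the sera, 5.97 in replicate 1 and 9.84 in Menin, and so stood out in a single serum. On chromosome 11, from 68886452 to 68887601, the folds were 34.7 and 31.05, 5.81 and 10.43. A narrow region on chromosome 6, 323 bp from 47698335 to 47698657, had 22.29, 32.33, 6.07 and 6.86, with the summits of serum 9172, H3K4me3 and Menin at most 3 bp from that of serum 9175. The Menin summit was farther from the serum 9175 summit at the regions on chromosome 5 (750 bp) and chromosome 11 (1081 bp). It lay 184 bp away at the region on chromosome 15 and 52 bp away at the remaining one, on chromosome 9. Among the 20 highest members, 13 had Menin by serum 9172 and 16 by serum 9175.

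The highest Menin fold at a member was 50.67, against 174 at regions with H3K4me3 in both libraries and 111.77 at regions without it. Neighbouring members on chromosome 10, from 79965644 to 79967048 and from 79967230 to 79968078, lay under the same Menin peak, with a fold of 50.67 and 456 tags. The Menin summit lay 42 bp from the serum 9175 summit of the first and 1285 bp from that of the second, which was 849 bp wide. The Mll2 folds of these members were 8.95 and 16.3 at the first and 8.21 and 13.86 at the second. The H3K4me3 folds in replicate 1 were 10.06 and 7.24. On chromosome 3, from 94216367 to 94217608, Menin reached 42.47 over Mll2 folds of 10.11 and 18.75 and an H3K4me3 fold of 9.1. In serum 9175 these 3 regions lay above the members' upper quartile of 12.2, and in serum 9172 they lay within the members' quartiles of 7.46 and 10.4. Next by Menin fold came chromosome 3 from 128902328 to 128903280 (35.96) and chromosome 8 from 87297491 to 87299054 (35.35). In sera 9172 and 9175 the former had 14.92 and 12.23, and so differed from the 3 above, and the latter had 9.7 and 15.49. Across the 984 members with Menin the Spearman's rho of Menin and serum 9175 fold was 0.11.

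By H3K4me3, the strongest member of replicate 1 lay on chromosome 15 from 75557921 to 75559066, with a fold of 27.5, Mll2 folds of 9.57 and 12.23 and Menin at 7.81. The strongest member of replicate 3 lay on chromosome 9 from 60369279 to 60370263, with a fold of 26.66, Mll2 folds of 13.88 and 22.4 and Menin at 16.77. That region was 164820 bp from the nearest H3K4me3 region of both libraries. Another member of replicate 3, on chromosome 1 from 6430905 to 6432163, had an H3K4me3 fold of 15.8, Mll2 folds of 22.38 and 25.27 and Menin at 12.92. The Spearman's rho of H3K4me3 and serum 9175 fold over the 1217 members was 0.07. It pools the H3K4me3 folds of 2 libraries of unlike depth, and the choice of members limits the range of the mark.

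At the threshold of the peak caller, which corresponds to a score of 50, the weakest H3K4me3 peaks at members scored 50.02 (chromosome 9 from 21751706 to 21752407, replicate 3, 15 tags) and 50.05 (chromosome 11 from 62489052 to 62489811, replicate 3, 14 tags). The shortest overlaps of an Mll2 region with its H3K4me3 peak were 17 bp (chromosome 6 from 30127969 to 30128612) and 34 bp (chromosome 3 from 121304603 to 121306234). Just outside, Mll2 regions without H3K4me3 began 2 bp (chromosome 11 from 68201366 to 68201889) and 4 bp (chromosome 4 from 126875701 to 126876327) from an H3K4me3 region of both libraries. The serum 9175 folds of these 2 outside regions were 7.34 and 9.78, and both had Menin, at 9.5 and 10.13.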

How the data were processed

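Peak lists of 5 ChIP-seq libraries were used as deposited. Per the file headers, MACS 1.4.2 was run by the authors on each library against 1 input, with a p cutoff of 1e-05 and 1 tag kept per position. The submitters' processing notes name Bowtie 0.12.9 and the build mm9. Each deposited peak has its count of tags, the deposited fold enrichment is a ratio to the background MACS estimated, the deposited score is minus 10 times the log10 of the MACS p, and the deposited false discovery rate is a percent (at most 0.95%, not used to filter). Both Mll2 lists had the same input.

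Overlaps needed at least 1 bp on the 19 autosomes (Python 3.11.15, numpy 2.4.6, pandas 2.3.3, scipy 1.17.1). Where several peaks of a list met a region, the highest fold was used, and likewise the highest tag count, tags per kb and score, each taken separately. The width and summit of a peak were those of the peak with the highest fold. Shares have exact Clopper-Pearson 95% intervals and medians have 95% order-statistic intervals, which cover counting error only. The code returned the set class at 3000 of 3000 simulated regions. The members, the strata and the comparisons were chosen with earlier results of these data known. Named regions were the 5 highest members in each serum, in Menin and in each H3K4me3 library, and 2 of each kind at the thresholds, outside chromosome 18; the text gives a selection. The 85 samples without a peak list used here were not analysed here.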

Additional observations from a re-analysis of the deposited data

How the results depend on the processing

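Of 59 alternative values, 34 lay within the interval of the reported value (for the count, within 1.5 times), or, in tags per kb, kept the order of the classes. Of the 48 that compare classes, 46 kept members between regions without H3K4me3 and regions with it in both libraries. The exceptions were serum 9172 medians: 10.385 at members and 10.44 without H3K4me3 with Mll2 scores of at least 100, and 8.21 in both with serum 9172 alone. These tallies include settings that changed few regions and so could hardly move the values. Such were members of replicate 1 only (1128 members) and chromosome X included (1227 members). Mll2 scores of at least 100 left 470 members, with Menin at 86.0%, a serum 9175 median of 12.12 and a width of 1066.5 bp. Serum 9175 alone gave 2011 members, 74.4%, 8.97 and 748 bp, and serum 9172 alone gave 75.5% and 610.5 bp. H3K4me3 scores of at least 100 gave 85.7%, 9.86 and 940 bp, and H3K4me3 lists of equal length, with replicate 1 shortened, gave 87.5%, 9.86 and 945 bp, with 998 members. Of these 998, 451 were among the 1217, so a similar count did not mean the same regions. Members of replicate 3 alone (89) had 83.1%, 10.4 and 937 bp. The Menin share was 61.1% with Menin scores of at least 100, 71.0% with the Menin summit inside the Mll2 region (chosen after the data were seen) and 83.2% standardised to the width quartiles of all Mll2 regions. Stricter lists hold fewer peaks; otherwise the cause was not tested. Leaving out an H3K4me3 library leaves no class with the mark in one of 2 libraries, so no such value was computed. No paired analysis was possible because the result comes from no test, with 1 library for each serum and for Menin.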

Other observations

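Chromosome X, which the choice of members left out, held 358 Mll2 regions, of which 10 (2.79%, 1.35 to 5.08%) had H3K4me3 in a single library and 18 (5.03%) in none. Menin was listed at 6 of those 10 regions, and at 86.7% of the 330 with H3K4me3 in both libraries, against 97.1% on the autosomes. The difference between X and autosomes was not tested.

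Both Mll2 regions over separate peaks of the 2 H3K4me3 libraries carried Menin. One, on chromosome 13 from 48826563 to 48828550, had Mll2 folds of 10.44 and 18.75, H3K4me3 folds of 10.4 in replicate 1 and 9.4 in replicate 3, and Menin at 12.61. The other, on chromosome 5 from 140022408 to 140023909, had Mll2 folds of 8.95 and 8.97, H3K4me3 folds of 7.94 and 8.46, and Menin at 37.18.

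A further 125 Mll2 regions overlapped an H3K4me3 region of both libraries but a peak of a single one, and they were counted with the regions of both libraries.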
